A study of Mus musculus with 14 samples.

Results

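Notch1, Notch2, Rbpj, Dtx1 and Hes1 are 5 genes of the Notch pathway, taken by symbol from a table of 25017 gene entries. The table holds read counts from bulk RNA sequencing of donor CD4+ T cells in mice with chronic graft-versus-host disease (cGVHD), in which a graft's immune cells attack the recipient, and in mice free of it. The 14 libraries form 7 groups of 2. They are lung PSGL1lo and PSGL1hi cells, liver PSGL1lo and PSGL1hi cells and spleen PSGL1lo and PSGL1hi cells, all from cGVHD recipients, and spleen PSGL1lo cells from GVHD-free recipients. PSGL1 is P-selectin glycoprotein ligand 1, the product of Selplg, and lo and hi name the fractions sorted on it. All recipients were BALB/C mice that received B6 (C57BL/6) TCD-BM, bone marrow depleted of T cells, and all tissues were taken on day 30. Only cGVHD recipients received donor splenocytes too, so disease and the transfer of donor spleen cells cannot be told apart. Age, sex and any pooling of animals were not given in the sources used here. Nothing states that the 2 libraries of a group came from separate mice, so every p-value rests on the spread between libraries, and that spread may be technical.

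Notch proteins are cell-surface receptors that are cut when a neighbouring cell presents a Delta-like or Jagged ligand. The freed intracellular part enters the nucleus and binds RBPJ, a DNA-binding protein that otherwise holds target genes down, and genes such as Hes1 and Dtx1 are then switched on. In T cells the pathway is known for the choice of the T lineage in the thymus, for shaping helper responses, and in mouse transplantation models for its part in graft-versus-host disease.

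Promoter windows, running from 250 bases before to 50 bases after a RefSeq start site (GRCm38.p6), were at hand for 4 of the 5 genes. They were searched on both strands for TGGGAA, the core of the sequence that RBPJ binds. The core was found in 25.6% of 32851 windows of that length, and the longer GTGGGAA, which contains it, in 6.38%. The windows of Rbpj and Dtx1 are shown because, of the 4 genes with a window, they had the widest spread of levels over the groups. Capitals mark the core, which has 2 matches in the Rbpj window at chr5:53590096-53590395, plus strand, and none in the Dtx1 window at chr5:120711620-120711919, minus strand. A second Rbpj window, which overlaps the first, held 1 match, and its site is that of the second match in the first window. The windows of Notch1 and Notch2 held 0, and the longer form was in none of the windows.
Rbpj: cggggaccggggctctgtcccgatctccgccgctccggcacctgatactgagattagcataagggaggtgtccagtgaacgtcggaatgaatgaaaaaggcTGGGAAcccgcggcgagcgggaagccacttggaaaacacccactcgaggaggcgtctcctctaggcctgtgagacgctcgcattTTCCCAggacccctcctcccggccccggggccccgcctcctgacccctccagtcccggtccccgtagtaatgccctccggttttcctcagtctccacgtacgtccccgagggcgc
Dtx1: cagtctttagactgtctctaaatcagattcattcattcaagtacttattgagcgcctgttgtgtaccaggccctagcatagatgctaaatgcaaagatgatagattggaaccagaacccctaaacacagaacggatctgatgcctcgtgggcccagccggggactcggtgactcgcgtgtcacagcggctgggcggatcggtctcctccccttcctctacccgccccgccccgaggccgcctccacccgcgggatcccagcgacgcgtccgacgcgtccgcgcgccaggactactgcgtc

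The libraries held 13222005 to 33532595 counts. Levels are CPM, counts of a gene per megacount of the library total, scaled by TMM (trimmed mean of M values). They are given as mean ± SD of 2 libraries and are not per gene length, so levels of different genes are not compared. A gene without counts may still have had up to 3, which is 0.0859 to 0.223 CPM by library. Changes are log2 ratios ± SE, and a gene was called when its Benjamini-Hochberg adjusted p in edgeR's quasi-likelihood test, adjusted over 13780 genes, was under 0.05. T cell markers were present throughout: all 8 of the list were detected in every group, with summed levels of 8200.1 to 9584 CPM in liver and lung libraries and 5236 to 5483 CPM in spleen libraries. Selplg RNA followed the sort, with 420 ± 51.7 CPM in lung PSGL1lo and 960 ± 48.7 CPM in lung PSGL1hi cells, 576 ± 50.6 and 923 ± 20.3 CPM in liver PSGL1lo and PSGL1hi cells, and 259 ± 30.2 and 503 ± 17.4 CPM in spleen PSGL1lo and PSGL1hi cells of cGVHD recipients. In GVHD-free spleen PSGL1lo cells it was 153 ± 10.5 CPM. Liver and lung libraries carry a different run of library numbers from the spleen libraries, and wherever liver or lung is set against spleen, the tissue cannot be told apart from the series of libraries.

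The 5 genes did not share a pattern. Rbpj was highest in lung and liver cells and lowest in GVHD-free cells, Dtx1 was highest in GVHD-free cells and lowest in lung PSGL1lo cells, and Notch1 and Notch2 each varied within a narrow range. Over the 7 groups, all 5 were called for any difference, with adjusted p-values of 1.74e-15 for Rbpj, 4.53e-14 for Dtx1, 3.05e-09 for Notch1, 8.4e-08 for Notch2 and 1.05e-05 for Hes1. That test called 90.2% of all genes, so a call there sets the members apart from few others. The call of Hes1 was set by a filter on low counts, which it passed only through the GVHD-free group. In bulk samples, fewer cells of a type and less RNA per cell cannot be told apart.

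**Figure D1:**
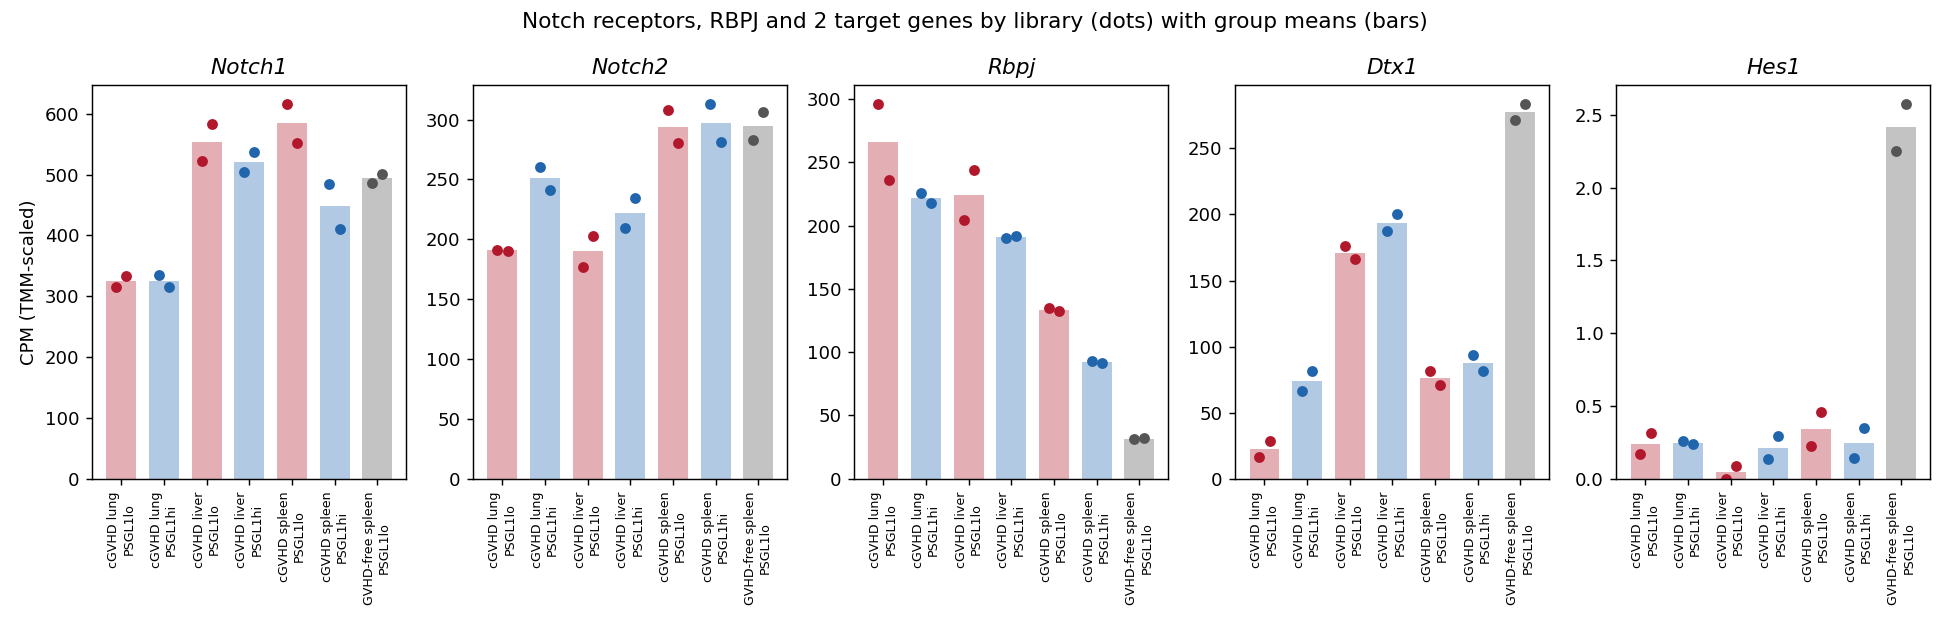
Level of each of the 5 genes (CPM, TMM-scaled) in each library (dots) with the mean of the 2 libraries of a group (bars), groups running from lung to spleen. Rbpj stood lowest in GVHD-free spleen PSGL1lo cells, at 31.7 CPM, and Dtx1 lowest in lung PSGL1lo cells, at 22.4 CPM.

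Notch1 encodes the receptor that T cell precursors depend on. It was highest in spleen PSGL1lo cells of cGVHD recipients, at 617 and 553 CPM in the 2 libraries, and lowest in both lung fractions. Lung PSGL1lo cells had 316 and 333 CPM, and lung PSGL1hi cells 335 and 316 CPM. Liver cells lay near the spleen level, PSGL1lo cells at 523 and 583 CPM and PSGL1hi cells at 505 and 537 CPM. Spleen PSGL1hi cells had 485 and 411 CPM, and GVHD-free spleen PSGL1lo cells 486 and 501 CPM. From low to high, the order of group means was lung PSGL1lo, lung PSGL1hi, spleen PSGL1hi, GVHD-free spleen PSGL1lo, liver PSGL1hi, liver PSGL1lo and cGVHD spleen PSGL1lo, over a 1.80-fold range. Neighbours whose libraries overlapped were the 2 lung fractions, the 2 liver fractions, and liver PSGL1lo beside cGVHD spleen PSGL1lo.

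Lung cells had less Notch1 RNA than liver cells in both fractions. The log2 ratio of lung over liver was -0.77 ± 0.08 in PSGL1lo cells (adjusted p = 1.74e-07) and -0.68 ± 0.08 in PSGL1hi cells (adjusted p = 9.05e-07). Against spleen, Notch1 was lower in lung PSGL1lo (-0.85, adjusted p = 1.32e-08) and lung PSGL1hi cells (-0.46, adjusted p = 4.42e-05). In liver it was not called in PSGL1lo cells (-0.08, adjusted p = 0.41) and was higher in PSGL1hi cells (0.22, adjusted p = 0.0259), which failed the threshold once spleen PSGL1hi replicate 2 (0.08) or liver PSGL1hi replicate 2 (0.17) was left out. Between fractions, Notch1 was higher in PSGL1lo than in PSGL1hi cells of the spleen, by 0.38 ± 0.08 (adjusted p = 0.000915). The same contrast gave 0.09 in liver (adjusted p = 0.51, 95% interval -0.08 to 0.25) and -0.00 in lung (adjusted p = 0.99, interval -0.17 to 0.17). The PSGL1lo effect in lung minus that in spleen was -0.39 ± 0.12 (adjusted p = 0.0239). That call was lost in 5 of the 8 fits that each left out 1 library, with values of -0.22 without spleen PSGL1hi replicate 2, -0.31 without spleen PSGL1lo replicate 1, -0.35 without lung PSGL1lo replicate 1 or lung PSGL1hi replicate 1, and -0.38 without lung PSGL1lo replicate 2. In spleen PSGL1lo cells Notch1 was higher with cGVHD than without, by 0.24 ± 0.08 (adjusted p = 0.0297). That call did not hold when cGVHD replicate 1 (0.17) or either GVHD-free replicate (0.22 and 0.27) was left out.

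Notch2 encodes the receptor that marginal zone B cells depend on and that T cells carry as well. Its level was highest in the spleen groups. In spleen of cGVHD recipients, PSGL1lo cells held 308 and 280 CPM and PSGL1hi cells 313 and 281 CPM, with 283 and 306 CPM in GVHD-free PSGL1lo cells. Lung PSGL1lo cells held 191 and 190 CPM and lung PSGL1hi cells 261 and 241 CPM. Liver PSGL1lo cells held 177 and 203 CPM and liver PSGL1hi cells 209 and 234 CPM. The order from low to high was liver PSGL1lo, lung PSGL1lo, liver PSGL1hi, lung PSGL1hi and then the 3 spleen groups, over a 1.57-fold range. The libraries of the spleen groups overlapped each other, as did those of liver and lung PSGL1lo cells.

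Notch2 was lower in PSGL1lo than in PSGL1hi cells of the lung, with a log2 ratio of -0.40 ± 0.08 (adjusted p = 0.00086). In liver the ratio was -0.22 ± 0.08 (adjusted p = 0.063). It was called there without PSGL1lo replicate 2 (-0.33) and, with all libraries, without the filter on low counts. In spleen the ratio was -0.02 (adjusted p = 0.91, 95% interval -0.19 to 0.16). The effect in lung minus that in spleen was -0.38 ± 0.12 (adjusted p = 0.0311). It was no longer called without spleen PSGL1lo replicate 1 (-0.32), spleen PSGL1hi replicate 2 (-0.25), lung PSGL1lo replicate 1 (-0.39) or 2 (-0.33), or lung PSGL1hi replicate 1 (-0.32). Against spleen, Notch2 was lower in lung PSGL1lo (-0.62, adjusted p = 1.68e-06), liver PSGL1lo (-0.63, adjusted p = 1.54e-06) and liver PSGL1hi cells (-0.42, adjusted p = 0.000174). It was lower in lung PSGL1hi cells too (-0.25, adjusted p = 0.0146), but not called without spleen PSGL1hi replicate 1 (-0.21) or lung PSGL1hi replicate 2 (-0.18). Between cGVHD and GVHD-free spleen PSGL1lo cells no difference in Notch2 was called, with a log2 ratio of -0.00 and a 95% interval of -0.18 to 0.17. None was called between lung and liver PSGL1lo cells either (0.01, interval -0.17 to 0.18).

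In counts as deposited, the number of Notch1 counts per Notch2 count, which does not depend on library size, was higher in PSGL1lo than in PSGL1hi cells in each tissue. It was 1.65 and 1.75 in lung PSGL1lo libraries and 1.28 and 1.31 in lung PSGL1hi libraries. In liver it was 2.96 and 2.87 in PSGL1lo and 2.41 and 2.30 in PSGL1hi libraries. In spleen of cGVHD recipients it was 2.003 and 1.97 in PSGL1lo and 1.55 and 1.46 in PSGL1hi libraries, and in GVHD-free PSGL1lo libraries 1.72 and 1.64. The PSGL1lo and PSGL1hi libraries did not overlap in any of the 3 tissues, and liver had the highest ratios. This ratio was chosen after the values were seen and was not tested, and it compares samples only, because the 2 genes differ in length.

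**Figure D2:**
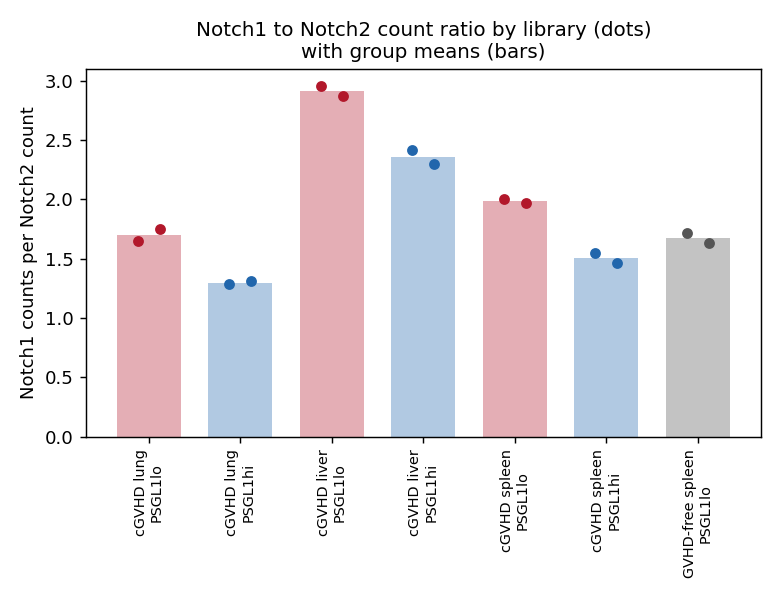
Notch1 counts per Notch2 count in each library (dots) with group means (bars). In lung, liver and spleen of cGVHD recipients, the PSGL1lo libraries lie above the PSGL1hi libraries of the same tissue.

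Annotated transcripts overlap these genes: 0610009E02Rik and Gm13568 lie on the strand opposite to Notch1, Gm42819 and Gm42820 within Notch2, and Gm10441 and Gm40304 opposite to Rbpj. The use of strand in counting was not given in the sources used here, so reads of such pairs cannot be told apart. Rbpj also has the annotated pseudogenes Rbpj-ps1, Rbpj-ps2 and Rbpj-ps3, whose reads its count may share.

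Rbpj encodes the DNA-binding protein through which all Notch receptors act. In spleen PSGL1lo cells it was 4.22-fold higher in cGVHD than in GVHD-free recipients. The cGVHD libraries held 135 and 132 CPM and the GVHD-free libraries 31.1 and 32.3 CPM, a log2 ratio of 2.08 ± 0.11 (adjusted p = 1.63e-12). The change was larger in size than that of 93.9% of all genes tested in that comparison. Without any 1 of the 4 libraries the ratio stayed between 2.05 and 2.11. Myeloid and dendritic cell markers summed to 176 to 191 CPM with cGVHD and 142 to 150 CPM without, none of the 12 at 0 in either group. Of the 12, 4 were called higher with cGVHD and 4 lower. The part of these markers in the result was not tested.

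Between the fractions, Rbpj was higher in PSGL1lo than in PSGL1hi cells of spleen and lung, and in liver the contrast missed the threshold. In spleen the PSGL1hi libraries held 93.1 and 91.7 CPM, below both PSGL1lo libraries, and the log2 ratio of PSGL1lo over PSGL1hi was 0.53 ± 0.10 (adjusted p = 0.00018). In lung, PSGL1lo libraries held 296 and 236 CPM and PSGL1hi libraries 226 and 218 CPM. The lung groups did not overlap and the ratio was 0.27 ± 0.09 (adjusted p = 0.029), but the PSGL1lo libraries were far apart. Without the higher of them (replicate 1) the ratio was 0.08 and not called; without PSGL1hi replicate 1 or 2 it was 0.28 or 0.23 and not called. In liver, PSGL1lo libraries held 204 and 244 CPM and PSGL1hi libraries 190 and 192 CPM, a ratio of 0.23 ± 0.09 that missed the threshold (adjusted p = 0.079) and passed it without PSGL1lo replicate 1 (0.36). With all libraries, no difference of the PSGL1lo effect between tissues was called for Rbpj; without liver PSGL1lo replicate 2 the effect in liver minus spleen was -0.44 and called, and without lung PSGL1lo replicate 1 that in lung minus spleen was -0.44 and called. Myeloid and dendritic cell markers summed to 176 to 191 CPM in spleen PSGL1lo and 391 to 419 CPM in spleen PSGL1hi libraries of cGVHD recipients, with none of the 12 at 0, and their part in the result was not tested.

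Liver and lung cells had the highest Rbpj levels of the series. Over liver PSGL1lo cells, lung PSGL1lo cells were higher by 0.25 ± 0.09 (adjusted p = 0.033), with overlapping libraries, and the call was lost without liver PSGL1lo replicate 1 (0.12), without lung PSGL1lo replicate 1 (0.07) and in a fit to these groups alone (0.26, adjusted p = 0.127). For PSGL1hi cells the ratio was 0.22 ± 0.09 (adjusted p = 0.069). Against spleen, PSGL1lo cells were higher by 0.995 in lung (adjusted p = 9.03e-09) and by 0.75 in liver (adjusted p = 6.66e-07), and PSGL1hi cells by 1.26 in lung (adjusted p = 1.66e-10) and by 1.05 in liver (adjusted p = 4.19e-09). From low to high the order was GVHD-free spleen PSGL1lo, spleen PSGL1hi, cGVHD spleen PSGL1lo, liver PSGL1hi, lung PSGL1hi, liver PSGL1lo and lung PSGL1lo, over an 8.40-fold range. The last 3 overlapped their neighbours. In lung, myeloid and dendritic cell markers summed to 806 to 1214 CPM in PSGL1lo and 713 to 886 CPM in PSGL1hi libraries. In liver they summed to 27.0 to 52.2 and 35.2 to 48.3 CPM, and in spleen of cGVHD recipients to 176 to 191 and 391 to 419 CPM. The part of these markers in the tissue differences was not tested.

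Dtx1 encodes Deltex1, an E3 ubiquitin ligase that is both a target of Notch signalling and a regulator of it, and that is known in mouse T cells for promoting anergy. With cGVHD it ran opposite to Rbpj in the spleen. In spleen PSGL1lo cells, cGVHD libraries held 81.2 and 70.8 CPM and GVHD-free libraries 271 and 284 CPM. The log2 ratio was -1.87 ± 0.14 (adjusted p = 1.01e-09), larger in size than that of 92.9% of genes. B and plasma cell markers moved in the same direction, their 10 genes summing to 19.5 to 21.0 CPM in cGVHD and 74.6 to 75.0 CPM in GVHD-free libraries. Their part in the result was not tested.

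Dtx1 was lower in PSGL1lo than in PSGL1hi cells of the lung, and there alone was the contrast of fractions called. Lung PSGL1lo libraries held 16.7 and 28.2 CPM and PSGL1hi libraries 66.6 and 81.5 CPM, with a log2 ratio of -1.73 ± 0.15 (adjusted p = 9.88e-09), larger in size than that of 94.3% of genes. In liver, PSGL1lo libraries held 176 and 166 CPM and PSGL1hi libraries 187 and 200 CPM (-0.18 ± 0.13, adjusted p = 0.38, 95% interval -0.45 to 0.10). In spleen, the PSGL1hi libraries held 93.8 and 81.6 CPM, and the ratio of PSGL1lo over PSGL1hi was -0.21 ± 0.14 (adjusted p = 0.28, interval -0.50 to 0.08). The difference itself was called: the effect in lung minus that in liver was -1.55 ± 0.20 (adjusted p = 3.19e-05) and in lung minus spleen -1.52 ± 0.21 (adjusted p = 2.22e-05). No single library decided these calls. Natural killer cell markers were also lower in the lung PSGL1lo libraries, summing to 62.2 to 70.4 CPM against 188 to 206 CPM in lung PSGL1hi libraries. Of the 5 genes, Ncr1, Klra8 and Klra4 were at 0 in both lung PSGL1lo libraries. Klra4 was at 0 in both lung PSGL1hi libraries too, and Klra8 and Klra4 were at 0 in both liver fractions. The natural killer sums were lower in PSGL1lo cells of the other tissues as well, at 40.9 to 41.3 CPM in liver PSGL1lo and 145 CPM in liver PSGL1hi libraries, and at 8.57 to 11.6 CPM in spleen PSGL1lo and 50.1 to 54.6 CPM in spleen PSGL1hi libraries. CD8 markers summed to 12.1 to 12.4 CPM in lung PSGL1lo and 28.5 to 30.6 CPM in lung PSGL1hi libraries. Their sums differed in the same direction in liver, at 28.0 to 31.5 CPM in PSGL1lo and 141 to 142 CPM in PSGL1hi libraries, and in spleen, at 11.8 to 12.3 CPM in PSGL1lo and 77.5 to 77.6 CPM in PSGL1hi libraries. Immediate early and stress genes summed to 9780 to 11626 CPM in lung PSGL1lo and 13195 to 13366 CPM in lung PSGL1hi libraries, and in the effect in lung minus that in liver 1 of the 13 was higher and 9 were lower. The part of any of these lists in the result was not tested.

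Between tissues, Dtx1 was lower in lung than in liver in both fractions. The log2 ratio of lung over liver was -2.94 ± 0.15 in PSGL1lo cells (adjusted p = 2.11e-12) and -1.39 ± 0.14 in PSGL1hi cells (adjusted p = 5.25e-08). The summed macrophage and dendritic cell markers ran the other way, at 806 to 1214 CPM in lung PSGL1lo and 27.0 to 52.2 CPM in liver PSGL1lo libraries. Of the 12 markers, 9 were called higher in lung PSGL1lo cells and 2 lower. Summed immediate early and stress genes were also higher in lung, at 9780 to 11626 CPM in lung PSGL1lo and 5574 to 5935 CPM in liver PSGL1lo libraries. Of these 13 genes, 9 were called higher and 3 lower. The part of either list in the result was not tested. Against spleen, liver cells had more Dtx1 (1.17 ± 0.14 in PSGL1lo cells, adjusted p = 3.03e-07, and 1.14 in PSGL1hi cells, adjusted p = 2.73e-07). Lung PSGL1lo cells had less (-1.76, adjusted p = 2.58e-09), while lung PSGL1hi cells missed the threshold (-0.24, adjusted p = 0.13). The order from low to high was lung PSGL1lo, lung PSGL1hi, cGVHD spleen PSGL1lo, spleen PSGL1hi, liver PSGL1lo, liver PSGL1hi and GVHD-free spleen PSGL1lo, over a 12.4-fold range. Only lung PSGL1hi and cGVHD spleen PSGL1lo overlapped as neighbours.

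Hes1 encodes a transcriptional repressor that is the classical target of Notch signalling. It was close to the detection limit in every cGVHD group. In lung there were 4 and 7 counts for PSGL1lo cells against 6 and 6 for PSGL1hi cells. In liver there were 0 and 2 counts for PSGL1lo cells against 3 and 8 for PSGL1hi cells. In spleen with cGVHD there were 3 and 7 counts for PSGL1lo cells against 3 and 8 for PSGL1hi cells. GVHD-free spleen PSGL1lo libraries held 37 and 36 counts and stood above all others. Hes1 passed the filter on low counts only through that group, so its difference there had to be seen if it was tested at all.

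In spleen PSGL1lo cells, Hes1 summed to 10 counts with cGVHD and 73 counts without, a ratio of 0.145 after scaling for depth (95% interval 0.0667 to 0.282, counting error only). The fitted log2 ratio was -2.78 ± 0.69 (adjusted p = 0.0039), and the call was lost without cGVHD replicate 1 (-2.38, adjusted p = 0.084). Liver PSGL1lo cells, with 2 counts in all, had a ratio of 0.0979 to spleen PSGL1lo cells (interval 0.0104 to 0.46). That difference was called (adjusted p = 0.021) but not without spleen PSGL1lo replicate 2 or liver PSGL1lo replicate 1. Between PSGL1lo and PSGL1hi cells the ratio was 0.97 in lung (interval 0.388 to 2.40), 0.154 in liver (interval 0.0166 to 0.708) and 1.41 in spleen (interval 0.536 to 3.65), and none was called.

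**Figure D3:**
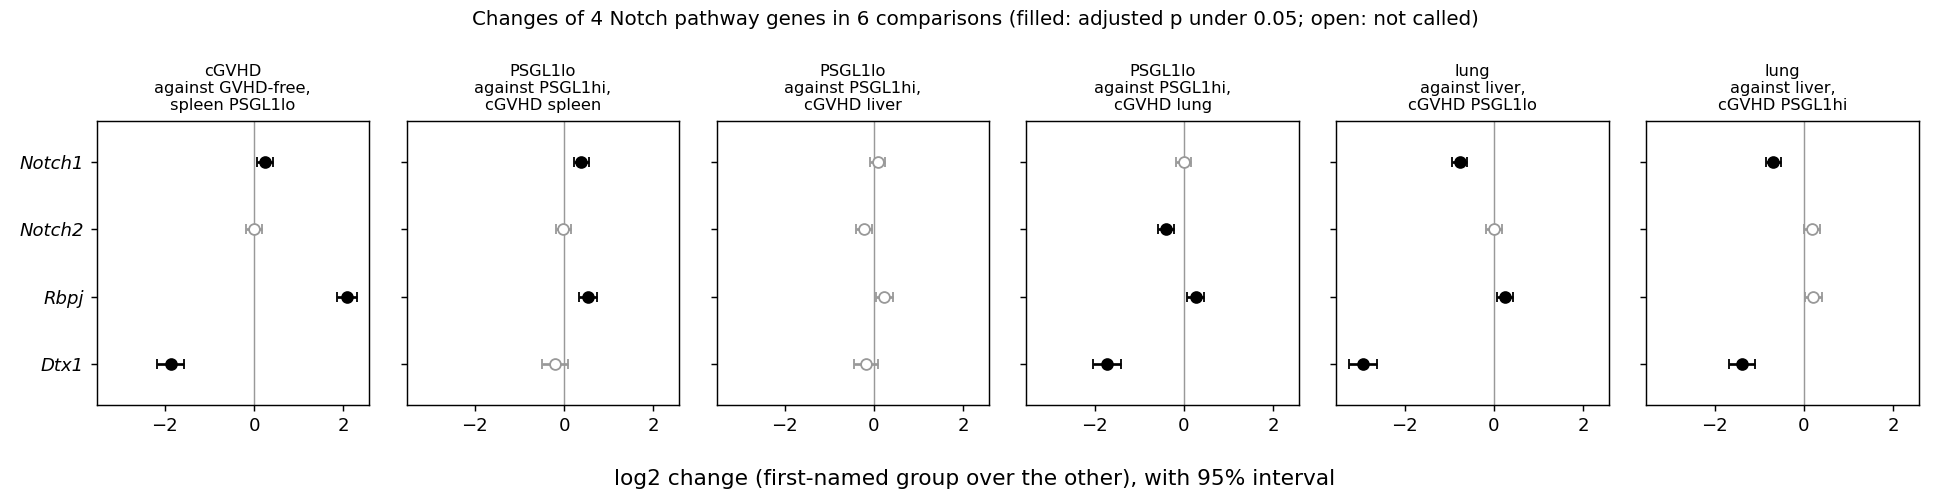
Log2 changes of Notch1, Notch2, Rbpj and Dtx1 in 6 comparisons with 95% intervals, the first-named group over the other; filled points were called and open points were not. Dtx1 lies at -1.73 for PSGL1lo against PSGL1hi in lung, and at -0.18 in liver and -0.21 in spleen.

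The number of members called in each comparison is given beside the share of all genes called there, and several of these counts lie near that share. With cGVHD against without, in spleen PSGL1lo cells, 4 of 5 members were called (2 higher, 2 lower), where 27.5% of all genes were. One of the 4 is Hes1, which was tested only because the GVHD-free group is high; of the other 4 members, 3 were called. For PSGL1lo against PSGL1hi cells, 3 of 5 were called in lung, 0 in liver and 2 in spleen, where 33%, 20.8% and 32.5% of all genes were. Over all genes tested, the liver share depends on single libraries: 1552 genes were called without PSGL1hi replicate 1 and 1643 without PSGL1hi replicate 2, against 2866 with all. For lung against liver, 3 of 5 were called in PSGL1lo cells and 2 in PSGL1hi cells, where 39.9% and 38.4% of all genes were. Against spleen, 4 of 5 were called for lung PSGL1lo, 3 for lung PSGL1hi, 4 for liver PSGL1lo and 4 for liver PSGL1hi cells, where 60%, 61.8%, 57.7% and 57.9% of all genes were. The differences of the PSGL1lo effect called 3 of 5 members for lung minus spleen, 1 for lung minus liver and 0 for liver minus spleen, where 16.6%, 5.97% and 6.84% of all genes were called. With so few members these shares are a description. Several of the comparisons share libraries, such as the cGVHD spleen PSGL1lo pair, and so do not bear on each other independently.

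Of 69 other listed pathway genes, all in the table, 62 were tested; Dll3, Dll4, Dlk1, Neurl1a, Hes7, Hey2 and Ptcra fell below the filter on low counts. The other receptors were sparse, with 0 to 27 counts of Notch3 and 6 to 23 counts of Notch4 in a library. With cGVHD against without, 13 of the 62 had more RNA and 14 had less in spleen PSGL1lo cells, where 14.7% and 12.8% of all genes were; their median log2 ratio was -0.01, and that of all genes 0.01. Every fit that left out 1 library called fewer of the listed genes, and fewer of all genes as well. Of 12 tested target genes, members included, 1 rose and 6 fell, Dtx1 and Hes1 among the 6. Hes1 was tested only because its counts were high in the GVHD-free group, so its fall adds nothing to that tally. Gata3, the Th2 lineage factor, rose to 113 ± 5.08 CPM with cGVHD, against 63.9 ± 2.67 CPM without (0.83 ± 0.09, adjusted p = 3.04e-07). Ccnd1, a cyclin of the entry into the cell cycle, was at 15.4 ± 0.253 CPM with cGVHD and 61.6 ± 5.18 CPM without (-2.002 ± 0.17, adjusted p = 4.08e-09). Hes5, a relative of Hes1, had 7 and 2 counts with cGVHD and 54 and 45 counts without. Its fitted log2 ratio was -3.34 ± 0.75 (adjusted p = 0.00169), but Hes5 missed the threshold once cGVHD replicate 2 was left out (-2.63). With so few counts under cGVHD, Hes5 may, like Hes1, have been tested only because the GVHD-free group is high. If so, its fall adds nothing to the 6 target genes or to the 14 listed genes with less RNA. Among modifiers of the receptor, Furin, the protease that cuts the Notch precursor, rose to 122 ± 0.275 CPM, against 72.5 ± 1.01 CPM (0.75 ± 0.14, adjusted p = 0.000198), and Lfng, the Fringe sugar transferase that alters which ligands Notch answers, rose to 308 ± 15.1 CPM, against 222 ± 7.59 CPM (0.48 ± 0.08, adjusted p = 5.98e-05).

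For PSGL1lo against PSGL1hi cells, more of the 62 genes were lower than higher in lung, and more were higher than lower in spleen. In lung 4 were higher and 19 lower (all genes: 12.9% and 20.1%; medians -0.12 and -0.03). In liver 3 were higher and 8 lower, a share near that of all genes (8.5% and 12.3%; medians -0.04 and -0.02). In spleen 17 were higher and 9 lower (all genes: 15.8% and 16.7%; medians 0.15 and 0.00). The lung count was lower in every fit that left out 1 library, as was the count over all genes. The liver count fell or rose with the library left out, as did the count over all genes. In the difference of the effects, 0 were higher and 18 lower for lung minus spleen (all genes: 5.51% and 11.1%), 0 and 8 for liver minus spleen (all genes: 2.64% and 4.2%), and 1 and 5 for lung minus liver (all genes: 2.08% and 3.89%). The liver minus spleen count of 8 also fell or rose with the library left out, and so did the count over all genes. Of 13 immediate early and stress genes, 0 were higher and 9 lower in lung PSGL1lo than in lung PSGL1hi cells. In spleen 7 were higher and 0 lower. In liver 6 were higher and 3 lower, while more of the listed genes were lower than higher there. In the effect in lung minus that in spleen, 0 of the 13 were higher and 10 lower. Of 12 myeloid and dendritic cell markers, 6 were higher and 0 lower in the effect in lung minus that in spleen. The part of either in the counts was not tested.

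Of 15 tested genes of receptor turnover and trafficking, 1 was higher and 9 were lower in lung, 2 and 3 in liver, and 5 and 4 in spleen. Of all genes, 12.9% were higher and 20.1% lower in lung, 8.5% and 12.3% in liver, and 15.8% and 16.7% in spleen. Nrarp, a Notch target that feeds back on the pathway, was at 4.65 ± 0.755 CPM in lung PSGL1lo cells and 14.95 ± 0.851 CPM in lung PSGL1hi cells (-1.69 ± 0.18, adjusted p = 1.56e-07). In liver PSGL1lo cells it was at 7.75 ± 0.475 CPM, and in liver PSGL1hi cells at 14.8 ± 2.44 CPM (-0.94 ± 0.16, adjusted p = 0.000235). In spleen the ratio was -0.51 ± 0.17 (adjusted p = 0.0284), a call lost without PSGL1lo replicate 2 (-0.30) or PSGL1hi replicate 1 (-0.44) or 2 (-0.58). The effect on Nrarp in lung minus that in spleen was -1.18 ± 0.25 (adjusted p = 0.00201). Nedd4, a ubiquitin ligase whose Drosophila relative acts on Notch, was lower in PSGL1lo cells of each tissue, with log2 ratios of -1.64 ± 0.11 in lung (adjusted p = 1.9e-10), -1.07 ± 0.10 in liver (adjusted p = 6.94e-08) and -1.42 ± 0.11 in spleen (adjusted p = 2.97e-09). So was Il2ra, the high-affinity IL-2 receptor chain and a reported Notch target, with ratios of -1.10 ± 0.10 in lung (adjusted p = 1.53e-08), -1.21 ± 0.10 in liver (adjusted p = 1.1e-08) and -1.41 ± 0.11 in spleen (adjusted p = 1.67e-09).

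Other genes differed between fractions by tissue. Furin was at 224 ± 2.28 CPM in lung PSGL1lo cells and 551 ± 25.5 CPM in lung PSGL1hi cells (-1.30 ± 0.13, adjusted p = 5.26e-08), and the effect in lung differed from that in spleen by -1.40 ± 0.18 (adjusted p = 1.36e-05) and from that in liver by -1.06 ± 0.18 (adjusted p = 0.000534). Jag1, a Notch ligand, was at 2.33 ± 0.239 CPM in lung PSGL1lo cells and 7.63 ± 0.704 CPM in lung PSGL1hi cells (-1.71 ± 0.32, adjusted p = 0.000254), an effect that differed from that in spleen (-1.82 ± 0.50, adjusted p = 0.0159) but, by the test, not from that in liver (-1.46 ± 0.55, adjusted p = 0.141). In spleen, PSGL1lo cells had more of the Mastermind coactivators Maml2 (0.65 ± 0.09, adjusted p = 1e-05) and Maml1 (0.50 ± 0.10, adjusted p = 0.000528). Maml1 was lower in PSGL1lo cells of the lung (-0.41 ± 0.09, adjusted p = 0.00161). Dtx4, a relative of Dtx1, rose to 38.4 ± 0.298 CPM in spleen PSGL1lo cells, against 16.9 ± 1.17 CPM in PSGL1hi cells (1.18 ± 0.10, adjusted p = 1.32e-08), and was also higher in liver PSGL1lo cells (0.55 ± 0.09, adjusted p = 0.000189). In lung it was lower in PSGL1lo cells (-0.29 ± 0.09, adjusted p = 0.0162), and the effect in lung minus that in spleen was -1.47 ± 0.14 (adjusted p = 2.94e-07).

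**Figure D4:**
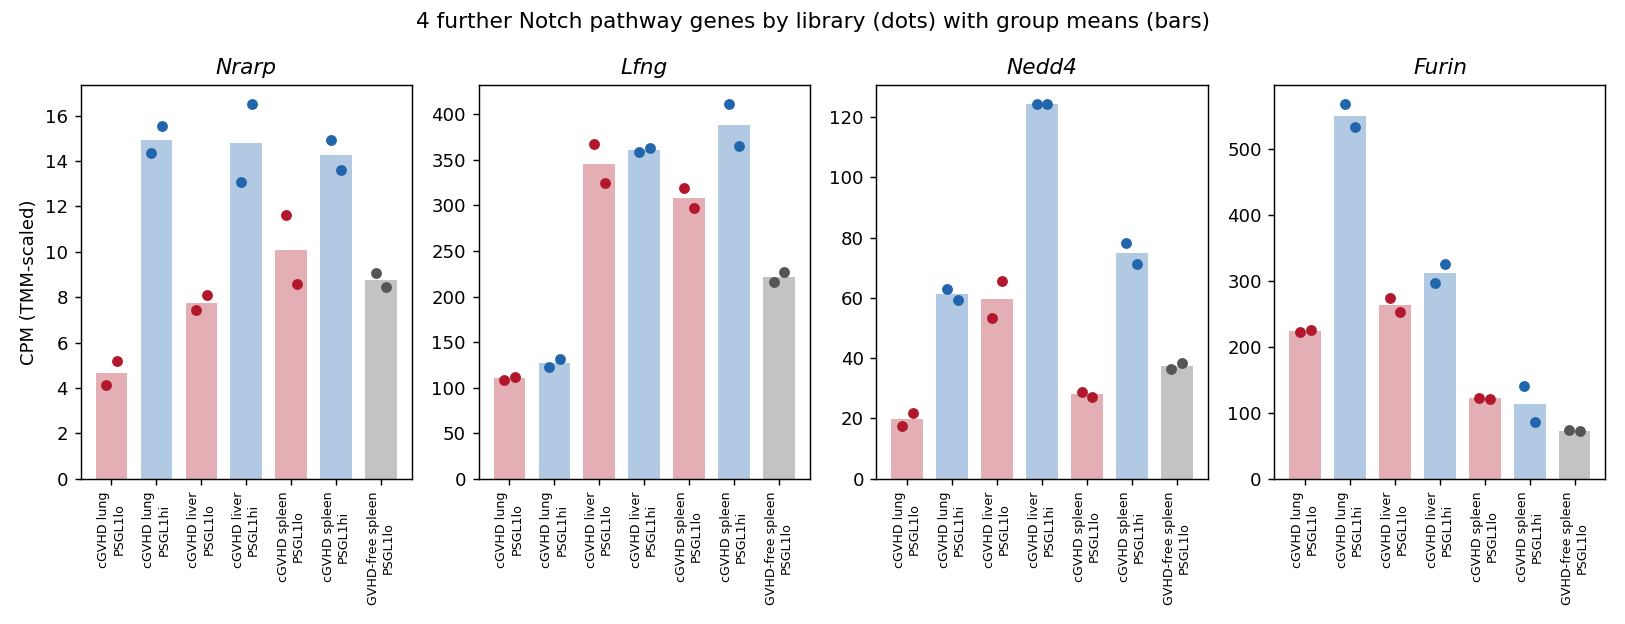
Levels of Nrarp, Lfng, Nedd4 and Furin (CPM, TMM-scaled) in each library (dots) with group means (bars). Nrarp and Nedd4 are lower in PSGL1lo than in PSGL1hi cells of each tissue, and Lfng is lowest in both lung fractions, at 110 and 127 CPM.

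Between lung and liver, 10 of the 62 genes were higher and 13 lower in PSGL1lo cells (all genes: 19.6% and 20.4%), and 12 were higher and 15 lower in PSGL1hi cells (all genes: 20.1% and 18.3%). Lfng followed Notch1 and Dtx1 in being lower in lung. It was at 110 ± 2.13 CPM in lung and 346 ± 30.6 CPM in liver PSGL1lo cells (-1.65 ± 0.08, adjusted p = 6.64e-13), and at 127 ± 5.78 CPM in lung and 361 ± 3.10 CPM in liver PSGL1hi cells (-1.51 ± 0.08, adjusted p = 1.49e-12). Adam17, one of the proteases that can cut Notch at the cell surface, was lower in lung, with ratios of -0.67 ± 0.08 in PSGL1lo cells (adjusted p = 1.26e-06) and -0.63 ± 0.08 in PSGL1hi cells (adjusted p = 2.72e-06). Neurl3, a Neuralized family ubiquitin ligase, was higher in lung by 1.14 ± 0.08 in PSGL1lo cells (adjusted p = 6.78e-10) and by 2.30 ± 0.09 in PSGL1hi cells (adjusted p = 1.05e-14). Lung epithelium markers summed to 6.36 to 87.3 CPM in lung PSGL1lo and 36.6 to 45.4 CPM in lung PSGL1hi libraries. They summed to 0.372 to 0.716 CPM in liver PSGL1lo and 0.854 to 0.870 CPM in liver PSGL1hi libraries. Hepatocyte and bile duct markers ran the other way, at 47.9 to 56.9 CPM in liver PSGL1lo and 7.33 to 9.51 CPM in lung PSGL1lo. The part of such RNA in any lung against liver difference was not tested.

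Genes whose log2 CPM followed each member most closely over the 14 libraries were ranked by Pearson's r among 9850 genes of at least 5 CPM on average. These values describe libraries that share groups, depth and library series. For Notch1 they were Dgcr2 (r = 0.976), Parp14 (0.957) and Nlrc5 (0.953), and for Notch2 Cnnm4 (0.986), Cltc (0.971) and Limd1 (0.969). For Rbpj they were Hlf (0.987), Ly6e (0.980) and St3gal6 (0.977), and for Dtx1 Kctd20 (0.945), Abcb1a (0.943) and Daxx (0.914). Hes1 was too sparse for such a ranking to be read.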

How the data were processed

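The deposited table held whole-number read counts per gene symbol, which the authors made with TopHat2 2.0.8, HTSeq and mouse build mm9, per the submitters' processing notes. RNA was extracted with Qiagen RNeasy and libraries were made with Kapa mRNA HyperPrep, per the labels' protocols. Gene annotation, strand and read length were not given in the sources used here. The analysis ran in edgeR 4.0.16 under R 4.3.3. Genes passing filterByExpr were kept, libraries were scaled by TMM, and 1 mean per group was fitted over all 14 libraries with the quasi-likelihood F test (glmQLFit, glmQLFTest) and Benjamini-Hochberg adjustment. The members and gene lists were chosen with earlier results of these data known. For each list and comparison, at most 3 called genes with the largest changes were eligible to be named, provided their libraries did not overlap and the higher group averaged at least 1 CPM; the text gives some of these. Their values in other comparisons follow from that choice. Intervals of Hes1 count ratios cover counting error only. The alternatives were no filter, size factors of DESeq2 1.42.0 (RLE), DESeq2's Wald test, fitting the compared groups alone, a replicate block, and leaving out each library.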

Additional observations from a re-analysis of the deposited data

Results flagged for a closer look

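For 3 of the 5 genes the difference between PSGL1lo and PSGL1hi cells was not the same in every tissue by edgeR's quasi-likelihood test of the difference itself. That test called 16.6% of all genes for lung minus spleen and 5.97% for lung minus liver. For Dtx1, the Deltex1 gene, the log2 effect in lung lay -1.55 from that in liver (adjusted p = 3.19e-05). It lay -1.52 from that in spleen (adjusted p = 2.22e-05). The PSGL1lo libraries stood below the PSGL1hi libraries of the same tissue in lung, liver and spleen alike. The effect on the receptor gene Notch1 in lung minus that in spleen was -0.39 (adjusted p = 0.0239), and that on Notch2 was -0.38 (adjusted p = 0.0311). Both calls were lost in 5 of the 8 fits that each left out 1 library, with values as small as -0.22 for Notch1 (adjusted p = 0.244) and -0.25 for Notch2 (adjusted p = 0.234), both without spleen PSGL1hi replicate 2. The difference between lung and spleen cannot be told apart from the series of libraries in any of these.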

How the results depend on the processing

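The calls of Dtx1 and Rbpj in spleen PSGL1lo cells with cGVHD against without, and those of Dtx1 in lung, in lung against liver and in both differences of the PSGL1lo effect, kept their direction and threshold side under every alternative run. Deviations from group means were hardly correlated between groups by replicate number (21 pairs of groups, correlations of -0.0611 to 0.0838). The highest values were those of the lung fractions (0.0838) and the liver fractions (0.0704). Such values cannot show that no libraries came from the same animal. With a replicate block, 3700 of all genes tested were called for cGVHD against GVHD-free, where 3791 were without it, and no call of the 5 genes changed. Alternatives for counts and named genes of the wider list were added after the values were seen.

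Sign changes near 0 were Notch2 with cGVHD (0.0034 without the filter) and Notch1 between lung fractions (0.0090 with RLE factors and with DESeq2's Wald test, 0.036 with the compared groups alone). Calls gained without the filter were Notch2 (-0.23) and Rbpj (0.23) between liver fractions, Rbpj in lung against liver PSGL1hi (0.21) and Dtx1 in lung against spleen PSGL1hi (-0.24). Rbpj in lung against liver PSGL1hi was also called with RLE factors (0.24), the Wald test (0.24) and the compared groups alone (0.22), Notch2 there with the Wald test (0.20) and the compared groups alone (0.18), and Dtx1 in lung against spleen PSGL1hi with the compared groups alone (-0.25). Calls lost were Rbpj in lung against liver PSGL1lo with the compared groups alone (0.26) and Notch1 in liver against spleen PSGL1hi with RLE factors (0.19). The liver minus spleen effect called 591 of all genes tested with the compared groups alone and 943 in the fit to all. The cause was not tested.

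Leaving out single libraries gave these lowest and highest log2 values. With cGVHD against without, they were 0.17 and 0.32 for Notch1, -0.066 and 0.062 for Notch2 and -3.40 and -2.38 for Hes1, with 12 to 19 listed genes called. Between lung fractions they were -0.051 and 0.033 for Notch1, 0.085 and 0.47 for Rbpj and -0.48 and 0.33 for Hes1, with 14 to 17 listed genes. Between liver fractions they were -0.33 and -0.12 for Notch2, 0.092 and 0.36 for Rbpj and -5.29 and -1.31 for Hes1, with 1552 to 3696 genes and 8 to 20 listed genes called. Between spleen fractions they were -0.10 and 0.063 for Notch2 and -0.14 and 1.26 for Hes1. For lung against liver PSGL1lo they were -0.095 and 0.11 for Notch2, 0.067 and 0.41 for Rbpj and 1.44 and 5.42 for Hes1, and for PSGL1hi -0.23 and 0.84 for Hes1. For liver against spleen PSGL1lo they were -0.16 and 0.016 for Notch1 and -5.94 and -1.96 for Hes1, and for PSGL1hi 0.083 and 0.33 for Notch1 and -0.84 and 0.59 for Hes1. For lung against spleen PSGL1lo they were -0.997 and 0.11 for Hes1, and for PSGL1hi -0.37 and -0.18 for Notch2 and -0.52 and 0.74 for Hes1. For the effect in lung minus spleen they were -0.46 and -0.22 for Notch1, -0.44 and -0.25 for Notch2, -0.44 and -0.064 for Rbpj and -1.25 and 0.094 for Hes1, with 1517 to 2047 genes called. For liver minus spleen they were -0.41 and -0.16 for Notch1, -0.44 and -0.17 for Rbpj and -0.066 and 0.15 for Dtx1, with 331 to 2497 genes and 2 to 19 listed genes. For lung minus liver they were -0.14 and 0.22 for Rbpj, with 475 to 1320 genes called. With 2 libraries in a group, the one left is assumed to vary like the other groups. Hes1 rests on 0 to 8 counts per cGVHD library, so its ratios are limited by depth.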
